A study of Rattus norvegicus with 10 samples.

Results

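The 2 corticosteroid receptors of the brain and 3 genes that glucocorticoids are known to induce were described in the hippocampus of rats bred for a high or a low locomotor response to a new environment. The members were taken by identifier: Nr3c1 (ENSRNOG00000014096), Nr3c2 (ENSRNOG00000034007), Fkbp5 (ENSRNOG00000022523), Sgk1 (ENSRNOG00000011815) and Per1 (ENSRNOG00000007387), 5 of the 16643 genes in the deposited table. The table lists Ensembl identifiers without symbols, and the pairing of these 5 with symbols came with the definition of the set. All 5 were in the table, and all 5 passed the authors' filter on low counts over these libraries, with 1820 to 13472 reads in each rat.

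Corticosterone, the main glucocorticoid of the rat, binds a pair of nuclear receptors in the hippocampus. The mineralocorticoid receptor, encoded by Nr3c2, has a high affinity for the hormone and is largely occupied at rest. The glucocorticoid receptor, encoded by Nr3c1, has a lower affinity and is engaged as the hormone rises under stress or at the daily peak. Both act as transcription factors, and Fkbp5, Sgk1 and Per1 are textbook targets of such activation in many tissues.

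PolyA RNA of the whole hippocampus was sequenced from 10 adult male rats of generation 43 of selective breeding, namely 5 bred High Responder (bHR) and 5 bred Low Responder (bLR) animals. Every rat had standard housing and a daily vehicle injection for 14 days, from postnatal day 78 to 92, and was killed 1 hour after testing on an anxiety-provoking apparatus, the elevated plus maze. Both lines therefore share injection and maze exposure, and an unhandled group was not analysed here. Each rat has a social interaction score, with no unit in the labels, taken after 15 minutes on that maze. The whole hippocampus mixes neurons, glia and vascular cells, so fewer cells of a type and less RNA per cell cannot be told apart. Markers of these cells could not be matched to identifiers and were not analysed here.

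The libraries held 29106105 to 48663164 reads assigned to genes. The values are log2 RPM, reads scaled to a common effective library size, on a scale where a step of 1 is a doubling. The bLR replicate 5 library stands apart. The ratio of effective size to total reads was 0.933 there and 1.00 to 1.02 for the other 9 libraries, and 4.06% of its reads came from a single gene. Results whose direction turns without it are given without it as well.

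The question for each member was whether its level differed between the lines. None of the 5 passed the test (limma with Benjamini-Hochberg adjustment over all 16643 genes), against 1.38% of all genes called. At an unadjusted p under 0.05 there was 1 member, Sgk1, against 15.1% of all genes, so that 1 of 5 is close to the share of the whole table. No member separated the 5 bHR from the 5 bLR rats without overlap, which 4.15% of all genes did. The median absolute log2 fold change was 0.079 over the members and 0.073 over all genes. The mean was higher in bHR for 2 members and lower for 3.

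**Figure D1:**
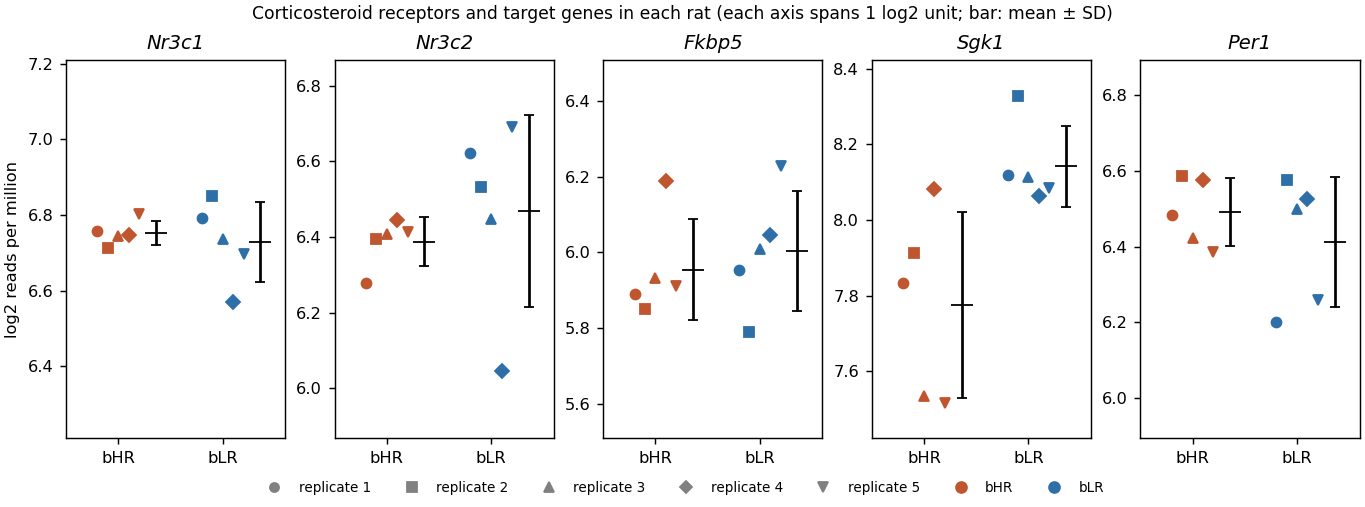
Log2 RPM of each gene (y axes, each spanning 1 log2 unit but set at different levels) in the 5 bHR and 5 bLR rats; symbols mark the replicate and bars the mean ± SD. Sgk1 has the widest gap between the lines, with bHR replicate 4 at the level of the bLR rats, and Nr3c2 has a single low value in bLR replicate 4.

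Nr3c1, the glucocorticoid receptor gene, was nearly level across the rats. Its log2 values in bHR replicates 1 to 5 were 6.76, 6.71, 6.74, 6.75 and 6.80. In bLR replicates 1 to 5 they were 6.79, 6.85, 6.74, 6.57 and 6.70. The bLR rats lay on both sides of the bHR rats, with bLR replicate 4 the lowest of all. The line means were 6.75 ± 0.033 (SD, n = 5) and 6.73 ± 0.11, and the log2 fold change was 0.024 (limma adjusted p = 0.85, SE 0.047). The 95% interval ran from -0.078 to 0.13, or from 0.947 to 1.09 times the bLR level. The difference was -0.016 without bLR replicate 4.

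Nr3c2, the mineralocorticoid receptor gene, spanned a narrower range in bHR than in bLR. In bHR replicates 1 to 5 the log2 values were 6.28, 6.39, 6.41, 6.45 and 6.41. In bLR replicates 1 to 5 they were 6.62, 6.53, 6.45, 6.04 and 6.69. Of the bLR rats 4 lay above every bHR rat, by a very small margin for replicate 3, and replicate 4 lay below every bHR rat. The line means were 6.39 ± 0.065 (SD, n = 5) and 6.47 ± 0.25, and the log2 fold change was -0.080 (limma adjusted p = 0.76, SE 0.099, 95% interval -0.30 to 0.14). Without bLR replicate 4 the difference was -0.19 and still did not pass (limma adjusted p = 0.11). Without bLR replicate 5, the highest value, it was -0.024 (limma adjusted p = 0.94).

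The balance between the receptors was taken in each rat as log2 Nr3c2 minus log2 Nr3c1, a ratio in which the scaling of the library cancels. Transcript length was not corrected for, so the balance is comparable between rats but does not say which receptor transcript is more abundant. In bHR replicates 1 to 5 it was -0.48, -0.32, -0.34, -0.30 and -0.39. In bLR replicates 1 to 5 it was -0.17, -0.32, -0.29, -0.53 and -0.0077. The bLR values held both the highest and the lowest of the 10. The means were -0.37 ± 0.072 (SD, n = 5) in bHR and -0.26 ± 0.19 in bLR, equal to 77.6 and 83.4 Nr3c2 reads per 100 Nr3c1 reads. The difference of -0.10 (SE 0.091) was within the spread of the rats (two-sided exact permutation p = 0.29 over 252 assignments, smallest possible 0.0079).

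This comparison turned on bLR replicate 4. Without that rat the bLR mean was -0.20 ± 0.14 (SD, n = 4) and the difference -0.17 (two-sided exact permutation p = 0.016, smallest possible 0.0079). Even then the lines overlapped, since bLR replicate 2 lay at -0.32 and the highest bHR rat at -0.30. The rat left out had the lowest balance of all. Of the 10 settings that left out 1 rat, only this had an exact permutation p under 0.05. The others gave 0.27 to 0.60, and the p of 0.016 was not adjusted for the choice among them. Without bLR replicate 5, the library that stands apart, the difference was -0.040 (exact permutation p = 0.60).

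**Figure D2:**
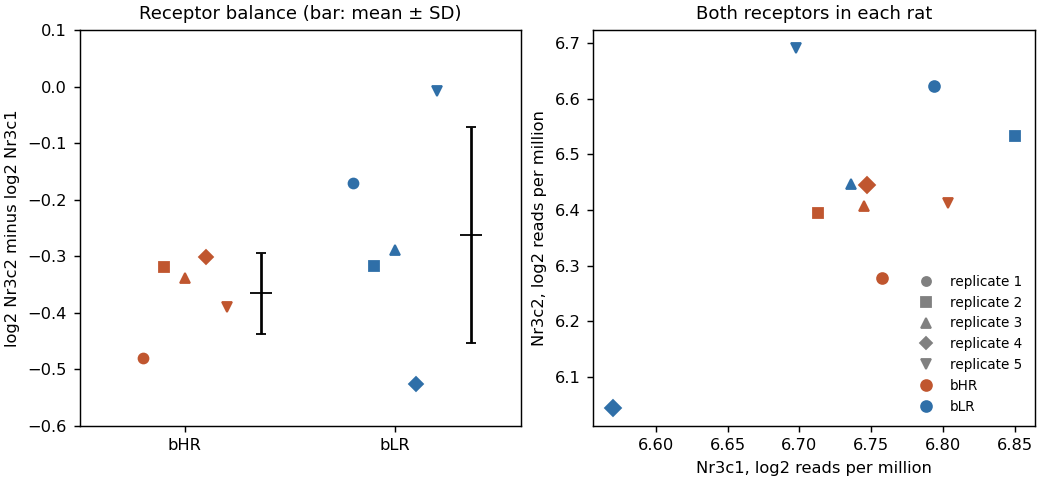
Left, log2 Nr3c2 minus log2 Nr3c1 in each rat by line, with the mean ± SD. Right, the log2 RPM of Nr3c1 (x axis) and Nr3c2 (y axis) in the same 10 rats. The bHR rats form a narrow band from -0.48 to -0.30, and bLR replicate 4 is lowest for both receptors.

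Sgk1 encodes a serum- and glucocorticoid-induced kinase that acts on ion channels and transporters. Its reads are a sum over all starts of the gene, of which the RefSeq promoter table (GRCr8) lists 3. The 250 bases before 2 of these starts are shown because Sgk1 had the largest line difference of the set and the deposited table cannot tell its starts apart. These 2 were picked because they hold the motif TATAAA. The window without it, chr1:24805571-24805820, is not shown. The sequences are given 5′ to 3′ on the minus strand, and capitals mark the TATA box motif TATAAA. It begins 55 bases before the start in the upper sequence and 33 in the lower.
Sgk1, chr1:24807232-24807481: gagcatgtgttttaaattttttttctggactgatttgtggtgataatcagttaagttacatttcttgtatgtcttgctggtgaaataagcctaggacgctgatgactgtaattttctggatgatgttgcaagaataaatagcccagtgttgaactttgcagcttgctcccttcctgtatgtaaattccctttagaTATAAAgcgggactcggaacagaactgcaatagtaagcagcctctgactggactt
Sgk1, chr1:24804832-24805081: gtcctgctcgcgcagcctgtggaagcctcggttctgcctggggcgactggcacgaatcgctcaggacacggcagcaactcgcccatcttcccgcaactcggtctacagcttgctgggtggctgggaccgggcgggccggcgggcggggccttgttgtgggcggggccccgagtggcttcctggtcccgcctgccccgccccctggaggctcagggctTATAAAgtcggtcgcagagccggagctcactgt
The table has 5 windows of 300 bases for the targets, 3 for Sgk1 and 1 each for Fkbp5 and Per1. On either strand, 0 of the 5 hold the glucocorticoid response element spelled AGAACANNNTGTTC, its single arm AGAACA, the cAMP response element TGACGTCA or the E-box CACGTG. Among all 33469 windows of that length these occur in 0.0388%, 20.7%, 1.83% and 6.42%. The arm is part of the full element, so those counts overlap. TATAAA, searched on both strands, occurs in 14.2% of all windows and in 2 of the 3 Sgk1 windows. The full element is so rare over all windows that 0 of 5 does not set these genes apart. Bases beyond the windows, which span 250 before and 50 after each start, were not searched. These matches describe letters in the windows only.

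Sgk1 had the lower mean in bHR. Its log2 values in bHR replicates 1 to 5 were 7.83, 7.91, 7.53, 8.08 and 7.52. In bLR replicates 1 to 5 they were 8.12, 8.33, 8.11, 8.06 and 8.08. Of the bHR rats 4 lay below every bLR rat, and bHR replicate 4 lay just above bLR replicate 4 and below the other bLR rats. The means were 222 ± 37.6 RPM (SD, n = 5) in bHR and 283 ± 21.8 in bLR. By the means of the log2 values the level was 1.29-fold lower in bHR. The log2 fold change was -0.37 (SE 0.10, 95% interval -0.59 to -0.15), with an unadjusted p of 0.0036 and a limma adjusted p of 0.11. Over all genes, 561 (3.37%) had an unadjusted p at or below that of Sgk1, and 7.73% had a log2 fold change at least as large in size.

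The direction of the Sgk1 difference held in each of the settings tried. Leaving out 1 rat gave -0.44 to -0.30 (limma adjusted p = 0.057 to 0.22), with the lowest p when bHR replicate 4 was left out. Without bLR replicate 5 the difference was -0.38 (limma adjusted p = 0.13).

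Fkbp5 encodes an immunophilin that joins the receptor's chaperone complex and lowers its affinity for hormone. Its log2 values in bHR replicates 1 to 5 were 5.89, 5.85, 5.93, 6.19 and 5.91. In bLR replicates 1 to 5 they were 5.95, 5.79, 6.01, 6.04 and 6.23. The lines overlapped fully except for the lowest and highest rats, both bLR, and 1 bHR rat, replicate 4, stood above its line. The means were 62.2 ± 6.11 RPM (SD, n = 5) in bHR and 64.5 ± 7.11 in bLR, and the log2 fold change was -0.050 (limma adjusted p = 0.82, SE 0.080, 95% interval -0.23 to 0.13). Without bLR replicate 5 it was 0.0056.

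Per1 encodes a repressor of the circadian clock and is also an early response gene. Its log2 values in bHR replicates 1 to 5 were 6.48, 6.59, 6.42, 6.58 and 6.39. In bLR replicates 1 to 5 they were 6.20, 6.58, 6.50, 6.53 and 6.26. Replicates 1 and 5 of bLR were below all other rats, and the other 3 bLR rats lay within the bHR range. The means were 6.49 ± 0.089 (SD, n = 5) and 6.41 ± 0.17, and the log2 fold change was 0.079 (limma adjusted p = 0.67, SE 0.075, 95% interval -0.084 to 0.24). It was 0.026 without bLR replicate 1 and 0.040 without bLR replicate 5.

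**Figure D3:**
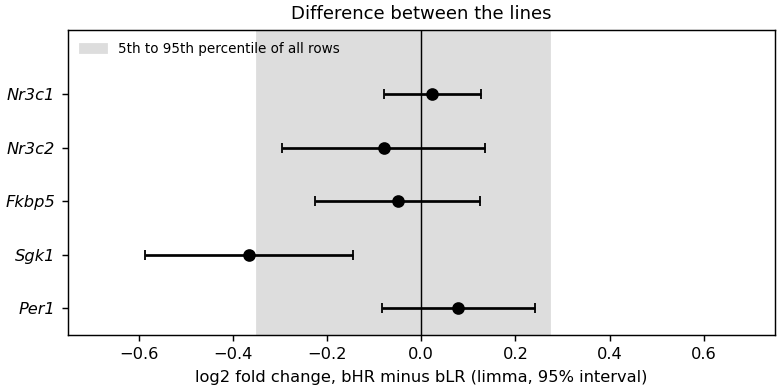
Log2 fold change of each gene, bHR minus bLR (x axis), with its 95% interval from limma; grey marks the 5th to 95th percentile of the fold change over all 16643 genes, -0.35 to 0.27. Only the interval of Sgk1 leaves out 0, before any adjustment for the number of genes tested.

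The members differed in how much they varied between rats of the same line. The within-line SD was 0.078 log2 units for Nr3c1, 0.14 for Per1, 0.15 for Fkbp5, 0.19 for Nr3c2 and 0.19 for Sgk1. Against the 1000 genes nearest in abundance, the SD of Nr3c1 was at least as large as that of 63.4%, and that of Sgk1 at least as large as 96.2%. For Nr3c2 this share was 95.5%, for Per1 89.5% and for Fkbp5 88.9%.

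The spread was not alike in the lines. For Nr3c2 the SD in bLR was 3.93 times that in bHR, and 3.41% of all genes had a ratio at least as large. Without bLR replicate 4 the ratio was 1.64. For Nr3c1 it was 3.25, and 2.04 without that rat. Sgk1 went the other way, with an SD in bHR 2.30 times that in bLR, and 3.98% of all genes leaned at least as far to bHR. Over all genes the median bLR to bHR ratio was 1.24, and 64.3% had the larger SD in bLR, as did 4 of the 5 members. No test was made of these ratios.

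Co-variation was examined between rats of the same line, after removing the line means. The 10 pairs of members gave correlations over 10 rats, each with an exact permutation test within lines (14400 rearrangements) and Benjamini-Hochberg adjustment over the 10 pairs. None passed, a count of 0 of 10, and 1 had an unadjusted p under 0.05. The rats share the library scaling and, within a line, the mean that was removed.

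Of the 3 pairs of targets, Sgk1 and Per1 had the highest correlation. They gave a Pearson's r of 0.56 (exact permutation p = 0.034, adjusted 0.34) and a Spearman's rho of 0.41 (exact permutation p = 0.19, adjusted 0.76). In bHR, replicates 2 and 4 lay above the line mean for both genes and replicates 3 and 5 below for both. Replicate 1 of bHR was above for Sgk1 (0.057) and just below for Per1 (-0.0075). In bLR, replicate 2 was above and replicates 1 and 5 below for both, while replicates 3 and 4 were above for Per1 and below for Sgk1. Leaving out 1 rat gave r from 0.46 to 0.67, and without the 2 rats farthest in Sgk1 r was 0.49 (exact permutation p = 0.16). With the line means kept in, r was 0.14 (permutation p = 0.72). Among all other genes, 3.42% had an r with Sgk1 at least as high as Per1 did, and 7.34% had an r with Per1 at least as high as Sgk1 did.

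Fkbp5 had an r of 0.068 with Sgk1 (exact permutation p = 0.88) and -0.23 with Per1 (exact permutation p = 0.59), with rho of -0.25 and -0.24 (exact permutation p = 0.53 and 0.56). Without the 2 rats farthest in Fkbp5, bHR replicate 4 and bLR replicate 5, the r with Sgk1 was -0.70 (exact permutation p = 0.0052, adjusted 0.052). Without bHR replicate 4 alone it was -0.56. The 2 rats were picked by their Fkbp5 values, and the adjustment covers the 10 pairs but not the choice among settings. The r of Fkbp5 and Per1 was 0.048 without bLR replicate 5 and 0.060 without bLR replicate 2.

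The receptors had the largest r of the 10 pairs, 0.67 (exact permutation p = 0.18, adjusted 0.71), with a rho of 0.41 (exact permutation p = 0.33). It rested on bLR replicate 4, the lowest rat for both, and was -0.21 without it. Without the 2 rats farthest in Nr3c1 it was -0.090 (exact permutation p = 0.90). Between receptors and targets, r was -0.46 for Nr3c1 and Fkbp5, -0.51 for Nr3c2 and Per1, and -0.18 to 0.14 for the other 4 pairs, with exact permutation p of 0.25 to 0.74. The r of Nr3c1 and Fkbp5 was -0.17 without bLR replicate 2. The r of Nr3c2 and Fkbp5, 0.13 with all rats, was -0.22 without bLR replicate 5 and 0.54 without bLR replicate 4.

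**Figure D4:**
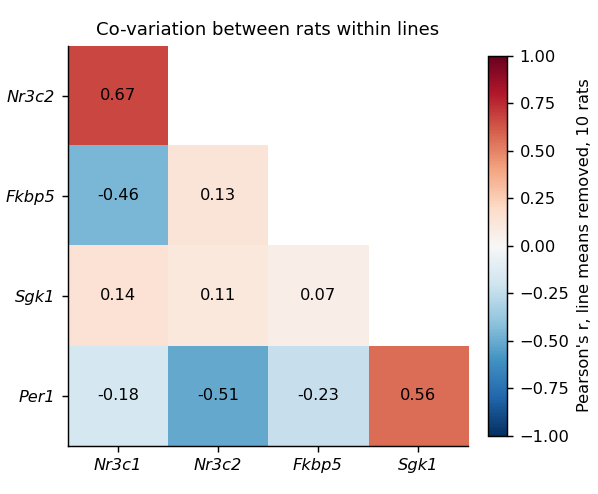
Pearson's r between each pair of members over 10 rats after the line means were removed, printed in each square and coloured from -1 (blue) to 1 (red). The highest values are 0.67 for the receptors and 0.56 for Sgk1 and Per1, and none passed adjustment over the 10 pairs.

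The same question was put to the whole table, by fitting every other gene on the line and on the level of 1 target. At an adjusted p under 0.05 limma called 0 of 16642 genes for each target, a share of 0%. At an unadjusted p under 0.05 the shares were 9.11% for Fkbp5, 1.79% for Sgk1 and 5.53% for Per1, and 0 of the other members reached it with all rats in the fit. These numbers of genes moved with single rats: from 1516 to 802 for Fkbp5 and from 921 to 1980 for Per1 without bLR replicate 2, and from 298 to 568 for Sgk1 without bHR replicate 4 (494 without bHR replicate 3). Members reached it in some of those fits, such as Sgk1 on Per1 without bLR replicate 1 (unadjusted p = 0.020) and Nr3c2 on Per1 without bLR replicate 2 (unadjusted p = 0.021), none of them with a limma adjusted p below 0.33. The genes most like Fkbp5 within lines, among 13795 with a mean log2 value of at least 1, were ENSRNOG00000028651 (r = 0.95 over 10 rats) and ENSRNOG00000000805 (r = 0.95). The most opposite were ENSRNOG00000006444 (r = -0.97) and ENSRNOG00000003769 (r = -0.92). These are the extremes of many correlations, and the file gives these identifiers no symbol.

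Each member was also set against the social interaction score within lines, by limma with both the score and the line as terms. None of the 5 passed, and neither did any gene (0%). A single gene, not a member, passed without the intensity trend (limma adjusted p = 0.035), and 1 with the replicate block (limma adjusted p = 0.0081). At an unadjusted p under 0.05 there was 1 member, Nr3c2, against 7.11% of all genes, or 1183 genes, which became 591 without bLR replicate 4. Nr3c2 was lower in rats with a higher score, by a slope of -0.025 log2 units per point (SE 0.0061, unadjusted p = 0.0017, limma adjusted p = 0.62). Over all genes, 42 (0.252%) had an unadjusted p at or below this.

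The scores of bHR replicates 1 to 5 were 28.33, 16.67, 17.67, 24.33 and 24.0, and those of bLR replicates 1 to 5 were 12.33, 8.0, 14.33, 24.0 and 7.33. In bLR the highest score, that of replicate 4, went with the lowest Nr3c2 value of 6.04, and the lowest score, that of replicate 5, with the highest value of 6.69. In bHR the highest score, that of replicate 1, went with the lowest value of 6.28, while the other 4 rats spanned 6.39 to 6.45.

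With line means removed, the Pearson's r of Nr3c2 and the score was -0.80 (exact permutation p = 0.016) and rho was -0.62 (exact permutation p = 0.075), 1 of 5 such relations computed. With the line means kept r was -0.75 (permutation p = 0.0086), a value that also carries the difference in score between the lines. These 2 correlations, -0.80 and -0.75, were chosen after seeing the data, unlike the planned fit (limma adjusted p = 0.62). The within-line relation rested largely on bLR replicate 4. Without it r was -0.51 (exact permutation p = 0.16) and the slope -0.0099 (unadjusted p = 0.15, limma adjusted p = 0.999). With line means removed from the scores, bLR replicates 4 and 5 were the 2 rats farthest from the median over all rats. Without them r was -0.41 (exact permutation p = 0.34), with bHR replicate 1, nearly as far in score, kept. Without bLR replicate 5 the slope was -0.023.

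For the other members the slopes were -0.0067 for Nr3c1, 0.0036 for Fkbp5, -0.0022 for Sgk1 and 0.0046 for Per1 (limma adjusted p = 0.76 to 0.97). The corresponding within-line r was -0.50 for Nr3c1 (exact permutation p = 0.25) and -0.070 to 0.20 for the targets (exact permutation p = 0.69 to 0.83). For Nr3c1 rho was -0.030, and r was 0.20 without bLR replicate 4.

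**Figure D5:**
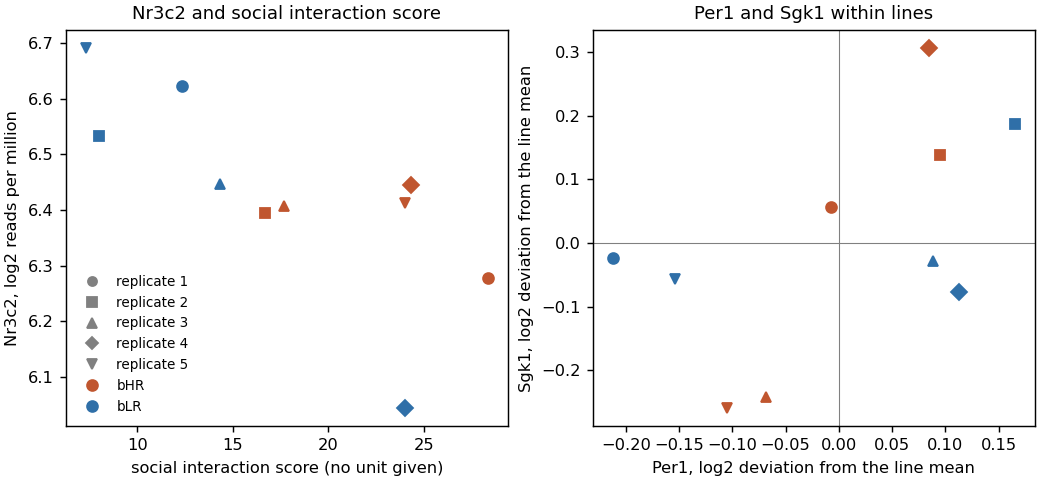
Left, Nr3c2 in log2 RPM (y axis) against the social interaction score (x axis) in the 10 rats. Right, deviation from the line mean in log2 units of Per1 (x axis) and Sgk1 (y axis) in the same rats. Nr3c2 is lowest in bLR replicate 4, at a score of 24.0, and bHR replicates 2 and 4 lie above 0 for both Per1 and Sgk1.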

How the data were processed

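The authors mapped single reads of 50 bases to Rnor_6.0 by Subread, allowing no indels, and featureCounts summed them per gene of Ensembl release 85, per the labels' protocols. Genes with 16 or more counts in 5 or more samples were retained, and limma voom (R 3.2.2) gave the deposited log2 values, per the labels' protocols and the submitters' processing notes. Over these 10 libraries 505 of the 16643 deposited genes fall short of that filter. They are included in the shares of all genes given here, and why they were retained was not tested. Whether counting used strand is not given in the sources consulted, so overlapping genes may share reads.

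Line differences are bHR minus bLR. The deposited log2 values were fitted with limma 3.58.1 (R 4.3.3) on all 16643 genes with an intensity trend, and p-values were adjusted by Benjamini-Hochberg at 0.05. Whole reads were recovered with 1 constant per library, which gave whole numbers within 0.01 reads for 100% of values. Correlations and exact tests, all two-sided, were run in Python 3.11.15 with numpy 2.4.6 and scipy 1.17.1. The limma fits, the recovery and the correlation test were tested on simulated data. Rats are separate animals, and each p-value sets a difference or relation against the spread between them. Litter was not a term in any fit.

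The members and lists were chosen with earlier results of these data known. The named genes are the members and, by rule, the 2 genes with the highest and the 2 with the lowest correlation with Fkbp5. Planned lists of pathway genes and cell type markers were not used, because 0 identifiers matched a symbol in the RefSeq gene table (GRCr8).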

Additional observations from a re-analysis of the deposited data

Results flagged for a closer look

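The search covered 12 groups of 5 values, each member and the receptor balance in each line. A rat was flagged where its gap to the nearest value exceeded 0.71 of the group's range (Dixon's criterion). Chance gives this in about 1 in 20 groups, and 2 of the 12 held such a rat. The balance is computed from 2 of the members, so the groups are not independent. Whether 2 of 12 is more than chance gives was not tested. In bHR, Fkbp5 of replicate 4 was 6.19, with the nearest bHR rat at 5.93. That rat also had the highest Sgk1 value of its line, 8.08. In bLR, Sgk1 of replicate 2 was 8.33, with the nearest bLR rat at 8.12.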

How the results depend on the processing

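Of the 5 line differences, none passed in any of the 21 settings tried for each. Over the 11 settings with all libraries the log2 fold change was -0.37 to -0.34 for Sgk1, 0.037 to 0.10 for Per1, 0.017 to 0.084 for Nr3c1 and -0.082 to -0.024 for Fkbp5. The values of 0.037, 0.084 and -0.082 came with the score as a covariate and -0.024 with scaling to total reads. Nr3c2 turned to 0.15 with the score as a covariate. Leaving out 1 rat gave -0.016 to 0.054 for Nr3c1, -0.19 to -0.024 for Nr3c2, -0.11 to 0.0056 for Fkbp5, -0.44 to -0.30 for Sgk1 and 0.026 to 0.12 for Per1. The receptor balance ran from -0.17 to -0.040 without 1 rat and was -0.050 as a difference of medians (exact permutation p = 0.24).

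Correlations were less stable. With the 2 farthest rats left out they became -0.090 for the receptors, -0.36 for Nr3c1 and Sgk1 and -0.70 for Fkbp5 and Sgk1. With line means kept Nr3c1 and Sgk1 gave -0.028. With scaling to total reads Nr3c1 and Per1 gave 0.14 and Nr3c2 and Fkbp5 -0.033. Fkbp5 and Sgk1 gave a rho of -0.25. Without 1 rat the ranges were -0.21 to 0.86 for the receptors, -0.13 to 0.34 for Nr3c1 and Sgk1, -0.67 to 0.15 for Nr3c1 and Per1, -0.22 to 0.54 for Nr3c2 and Fkbp5, -0.088 to 0.19 for Nr3c2 and Sgk1, -0.56 to 0.39 for Fkbp5 and Sgk1, -0.52 to 0.060 for Fkbp5 and Per1, -0.63 to -0.17 for Nr3c1 and Fkbp5, -0.67 to -0.38 for Nr3c2 and Per1 and 0.46 to 0.67 for Sgk1 and Per1.

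For the score, the 2 correlations of Nr3c2, -0.80 within lines and -0.75 with line means kept, were chosen after seeing the data. Fkbp5 had an r of -0.015 with line means kept. Slopes without 1 rat were -0.0089 to 0.0023 for Nr3c1, -0.029 to -0.0099 for Nr3c2, -0.0017 to 0.011 for Fkbp5, -0.0079 to 0.0033 for Sgk1 and -0.0019 to 0.0097 for Per1. Genes following Fkbp5 numbered 0 to 1 without 1 rat.

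The labels do not say whether a shared replicate number pairs rats across lines. Over all genes, with line means removed, correlations of such rats ran from -0.15 to 0.10. Of the bHR rats, 0 of 5 matched their own number best. These values cannot exclude a pairing that touches few genes. With the replicate block the Sgk1 difference was -0.37 (limma adjusted p = 0.11), the receptor balance -0.10 (exact sign-flip p = 0.31) and the Fkbp5 slope -0.017. The block lowered the SE of the line difference from 0.10 to 0.083 for Sgk1 and from 0.080 to 0.063 for Fkbp5. For Per1 it fell from 0.075 to 0.052. The SE was 0.047 and 0.048 for Nr3c1, and 0.099 and 0.098 for Nr3c2, without and with the block.

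The number of genes called between lines, 230, became 152 without the intensity trend, 108 with the replicate block, 46 with the score as a covariate and 108 to 216 without 1 rat. Count-model tests on recovered reads were planned but not run, a choice made because the deposited unit is log2. Voom weights were computed on the recovered reads with the authors' library sizes. Where a setting with every library kept changed a value, the cause was not tested. The part of depth in these results was not tested.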
